A study of Homo sapiens with 6 samples.

Results

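Amino acid transporters of the SLC1, SLC7, SLC36, SLC38 and SLC43 families were examined in KYSE70 and NRF2null-KYSE70, a pair of human esophageal squamous cell carcinoma (ESCC) cell lines. Members were taken by gene symbol: SLC1A1 to SLC1A7, every SLC7A gene except SLC7A11, SLC36A1 to SLC36A4, every SLC38A gene and SLC43A1 to SLC43A3. The rule used no measured value, although the transporters were chosen with earlier results of these data known. It found 37 of the 58884 genes in the table, each with a single row. Of these, 21 had a mean of at least 10 normalized counts over the 6 libraries and were tested with the other genes, 15994 in all.

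Amino acids cross membranes on solute carriers, most of which either couple uptake to sodium or protons or exchange one amino acid for another. The SLC7 light chains reach the plasma membrane only as partners of a heavy chain, SLC3A2 (CD98) for most of them, and SLC7A5 (LAT1) in such a pair brings in leucine and other large neutral amino acids, which activate the growth kinase mTORC1. Carriers such as SLC38A1 and SLC38A2 load the cell with glutamine and other small neutral amino acids, some of which the exchangers, SLC1A5 among them, then trade outward. SLC7A11, the cystine carrier left out by the rule, is a well-known target of the transcription factor NRF2, and several of the carriers examined here are known to be induced through the amino acid response by ATF4.

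KYSE70 is an established ESCC line with a mutant NFE2L2 gene, which encodes NRF2. NRF2null-KYSE70 was grown from 1 clone of KYSE70 after CRISPR-Cas9 cutting in exon 2 of NFE2L2. Smaller isoforms of NRF2 were described in this clone, so it is not known to lack every form of the protein. Both lines were grown untreated in RPMI1640 medium with serum, and each gave 3 RNA-seq libraries, so a difference between the groups was a difference between 1 clone and its parent. The labels call the libraries replicates without saying that they came from separate cultures, and p-values then measure only the spread between these libraries, which may be technical. Bulk RNA also cannot tell fewer cells with a transcript from less of it per cell.

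The libraries held 52072801 to 63975313 reads assigned to genes, and no pair within a line agreed within sampling noise. NFE2L2 had 9839, 9906 and 10039.8 normalized counts in KYSE70 and 5803, 6041 and 6434 in NRF2null-KYSE70, so the clone kept 61.4% of the parental RNA (log2 fold change -0.71, limma adjusted p = 9.37e-08). All 6 squamous epithelial markers (KRT5, KRT6A, KRT17, TP63, DSG3 and ITGA6) were detected in every library, at 564 normalized counts or more; KRT5, TP63 and DSG3 were lower and KRT6A, KRT17 and ITGA6 higher in NRF2null-KYSE70 (limma adjusted p from 3.63e-09 to 2.27e-05). The 8 markers of other cell types summed to between 1316 and 1485 normalized counts in KYSE70 and between 779 and 1087 in NRF2null-KYSE70, most of it COL1A1 and VWF, and COL1A2 was at 0. All 3 of these that were tested passed the threshold: PTPRC, a leukocyte marker, rose from 0.351 to 43.6 normalized counts and VWF, of endothelium, from 142 to 353, and COL1A1, of fibroblasts, fell from 1232 to 554. The part of these genes in the results below was not tested.

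Of the 21 tested transporters, 5 passed the threshold in limma, which asked for an adjusted p under 0.05 together with a log2 fold change of 1 or more in either direction. SLC43A1, SLC1A3, SLC38A5 and SLC7A5 were higher in NRF2null-KYSE70 and SLC7A8 was lower. That share was 23.8%, beside 14.7% of all tested genes, of which 7.23% were higher and 7.43% were lower. By the adjusted p alone 16 transporters were called (76.2%, beside 57.6% of all tested genes), 9 higher and 7 lower, against 29.3% and 28.3% of all tested genes in these directions. No library of one line lay within the range of the other for 16 of the 21 (76.2%, beside 63.4% of all tested genes). Except for SLC38A4 and SLC38A5, the tested transporters had means of at least 500, whereas all tested genes start at a mean of 10. Shares at a matched level of expression were not tested. The set was also chosen with earlier results of these data known. The median log2 fold change of the transporters was 0.15, beside -0.01 over all tested genes, and the median absolute value was 0.72, beside 0.36. Fold changes throughout compare NRF2null-KYSE70 with KYSE70 after adding 1 to each normalized count and taking log2, so that values of genes with few reads are pulled toward 0.

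**Figure D1:**
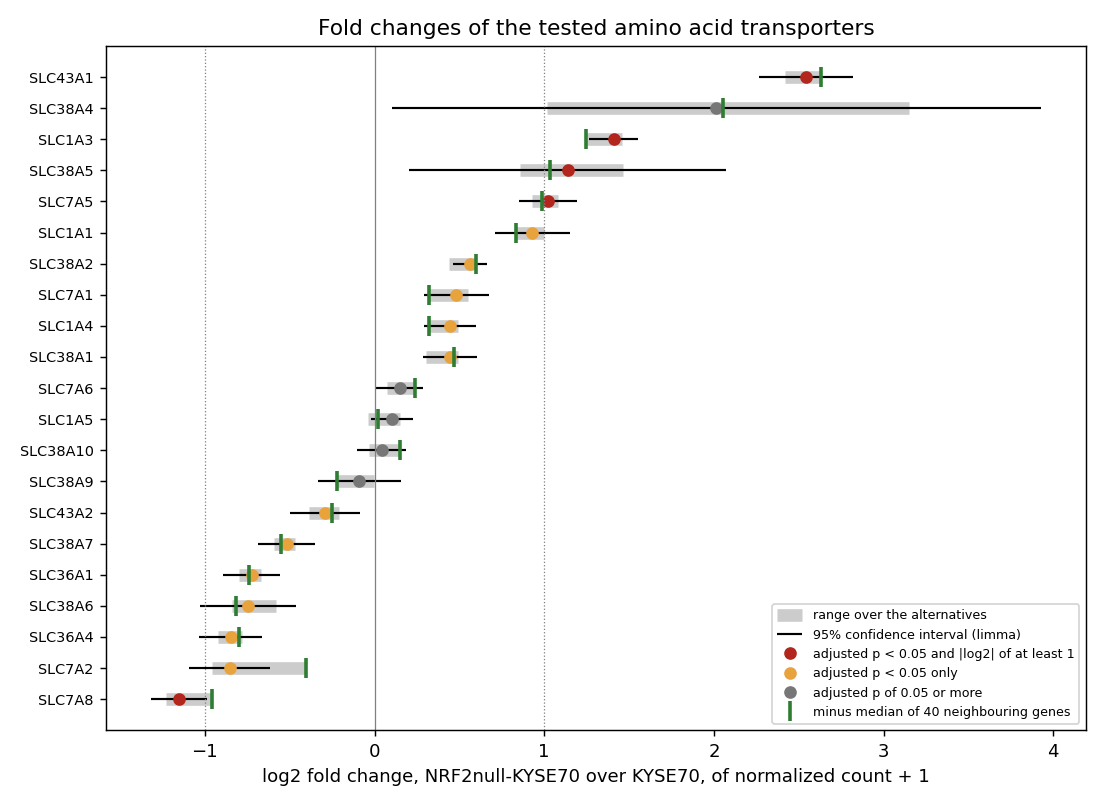
The log2 fold change (NRF2null-KYSE70 over KYSE70, of normalized count + 1) of each of the 21 tested transporters is drawn as a point coloured by call, with its 95% confidence interval from limma as a line, its range over the alternatives as a grey band and its value minus the median of 40 neighbouring genes as a green bar. The values ran from -1.15 for SLC7A8 to 2.54 for SLC43A1, and the intervals of SLC38A4 and SLC38A5, which had few reads, were the widest.

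**Figure D2:**
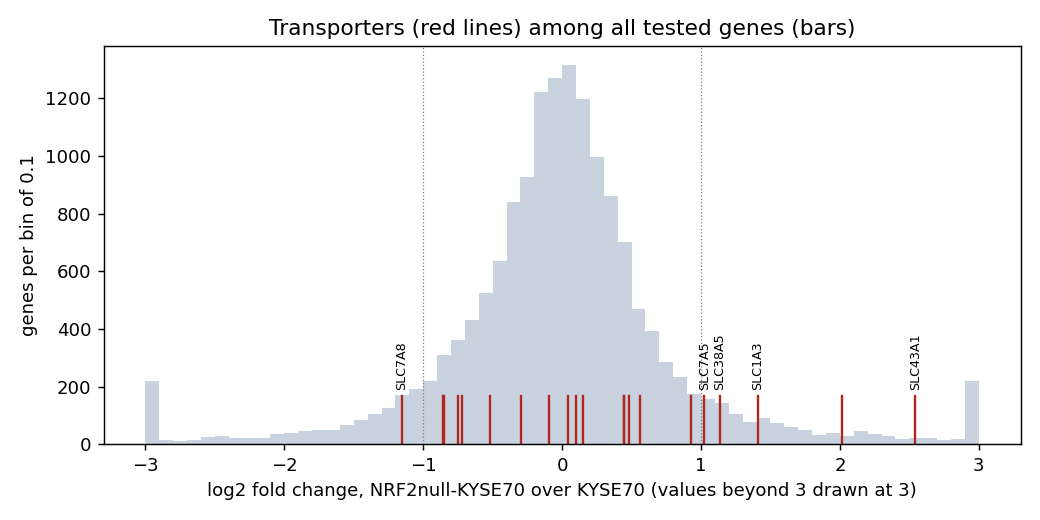
Grey bars count the 15994 tested genes by log2 fold change in bins of 0.1, with values beyond 3 drawn at 3, and red lines mark the 21 tested transporters, 5 of them named. The transporters lay on both sides of 0, and 3.50% of all tested genes had a larger absolute change than SLC43A1.

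In normalized counts, which follow transcript length as well as abundance, the 37 transporters together held 162235 ± 9960.1 in KYSE70 and 264775 ± 26649 in the clone (SD, n = 3 libraries here and below), a 1.63-fold difference. The sums were 173242, 159618 and 153844 in the KYSE70 libraries and 295543, 249797 and 248985 in the NRF2null-KYSE70 libraries. The groups did not overlap, and the exact two-sided permutation test gave p = 0.1, the smallest that 3 against 3 libraries allow. SLC7A5 alone made up 47.3% ± 0.508 of the sum in KYSE70 and 59.1% ± 1.01 in NRF2null-KYSE70, and it accounted for 77.8% of the difference between the sums. Without SLC7A5 the sums were 85410.0 ± 4448 and 108135.5 ± 8173, a 1.27-fold difference. The first library of each line was the highest of its line for 15 of the 21 tested transporters, whereas it was the highest for 36.3% of all tested genes in KYSE70 and 40.8% in NRF2null-KYSE70. Leaving it out gave the same 5 transporters past the threshold for KYSE70 and 4 for NRF2null-KYSE70. In the latter case SLC7A5 and SLC38A5 were lost and SLC38A4 was gained.

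RefSeq promoter windows (GRCh38.p14, from 250 bases before to 50 bases after each start) were found for 30 of the 37 transporters, 50 windows in all. They were searched on both strands for the NRF2-type antioxidant response element TGACNNNGC and for the amino acid response element TGATGNAA, which ATF4 binds. The first was in 6 of the 50 windows (12%), beside 13.3% of 35116 windows of all genes, and the second was in 5 of the 50 (10%), beside 3.62%. Counted by gene, the first was found for 6 of the 30 transporters (20%), beside 16.1% of 27305 genes. The second was found for 5 of the 30 (16.7%), beside 4.46%. Whether the first lay under or over the share of all genes thus depended on the unit counted. The antioxidant response element letters stood in windows of SLC1A3, SLC1A5, SLC7A1, SLC7A5, SLC7A6 and SLC7A7, and the amino acid response element letters in windows of SLC1A3, SLC1A4, SLC1A5, SLC38A1 and SLC7A1, with no match of one overlapping a match of the other. Of the 5 transporters past the threshold, SLC7A5 and SLC1A3 held a match. A match describes these letters only and says nothing of binding or of a cause. The sequences below, with the motif in capitals and 9 bases on each side, are shown because these genes are among the most abundant or most changed carriers described next, and positions count the first transcribed base as 0.
SLC7A5, antioxidant response element, positions -2 to 6, chr16:87869492-87869518, gene on the minus strand: cggggttccTGACGCAGCtgcgggcgg
SLC1A3, antioxidant response element, positions -196 to -188, chr5:36606401-36606427, gene on the plus strand: acagtgaacTGACAAAGCgtgaaagtg
SLC7A1, antioxidant response element, positions -85 to -77, chr13:29595756-29595782, gene on the minus strand: gcccggcggTGACGCGGCcgagcgggc
SLC1A3, amino acid response element, positions -220 to -213, chr5:36596359-36596384, gene on the plus strand: ggaaatgacTGATGCAAagcagggtt
SLC1A5, amino acid response element, positions -97 to -90, chr19:46784895-46784920, gene on the minus strand: ggaagtggcTGATGCAAgctgtccag
SLC38A1, amino acid response element, positions -4 to 3, chr12:46266504-46266529, gene on the minus strand: agacccgaaTGATGAAAagggatcag
The pair of SLC1A3 matches lay in windows of different start sites. The matches shown for SLC1A5 and SLC38A1, and the antioxidant response element match of SLC1A3, lay at start sites inside the annotated genes. These genes begin at bases 46788594 (SLC1A5), 46270017 (SLC38A1) and 36596588 (SLC1A3).

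Among the heavy chain partners, SLC7A5 and SLC7A8 moved in opposite directions. SLC7A5 (ENSG00000103257, chromosome 16 from 87830023 to 87869507, minus strand, hg38) had 83018, 75063 and 72393 normalized counts in KYSE70 and 177986, 146846 and 145086 in NRF2null-KYSE70. Every NRF2null-KYSE70 library was far above every KYSE70 library, with library 1 of the clone standing above its other two. The means of 76825 ± 5527 and 156639.5 ± 18507 differed 2.04-fold, or by 1.02 on the log2 scale (SE 0.079, 95% interval 0.85 to 1.19, limma adjusted p = 2.2e-07). This value sat at the cut-off on the fold change: it was 0.93 without NRF2null-KYSE70 library 1, 0.98 without KYSE70 library 3, 0.95 with libraries scaled to the same total and 0.99 relative to its 40 neighbouring genes, all with an adjusted p under 0.05. A near-identical copy, SLC7A5P1, held 23.5 to 58.1 normalized counts per library and another, SLC7A5P2, was at 0.

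SLC7A8 (LAT2, ENSG00000092068, chromosome 14 from 23125295 to 23183674, minus strand), which carries large and small neutral amino acids on the same heavy chain, had 1622, 1526 and 1531 normalized counts in KYSE70 and 742, 655 and 707 in NRF2null-KYSE70. The groups lay well apart, and NRF2null-KYSE70 held 45.0% of the KYSE70 mean. Its log2 fold change was -1.15 (SE 0.076, 95% interval -1.32 to -0.99, limma adjusted p = 5.22e-08). The 40 tested protein-coding genes nearest to SLC7A8 had a median of -0.19, and relative to them its value was -0.96. SLC7A6 (y+LAT2), which exchanges cationic for neutral amino acids, had 2641, 2428 and 2453 normalized counts in KYSE70 and 2999, 2703 and 2649.6 in NRF2null-KYSE70. Its libraries barely separated, and the log2 fold change of 0.15 (95% interval 0.01 to 0.29) did not pass (limma adjusted p = 0.0616). It passed relative to its 40 neighbouring genes (0.24, adjusted p = 0.00679), without KYSE70 library 1 (adjusted p = 0.0451) and without NRF2null-KYSE70 library 3 (adjusted p = 0.0477). Over all alternatives its adjusted p ran from 0.00679 to 0.325. Its exons share 3372 bases with SLC7A6OS on the opposite strand, a gene with a mean of 1513 normalized counts, and counting by strand was not stated, so their reads may be mixed. SLC7A7, the epithelial relative of SLC7A6, had 55 reads in all 6 libraries together and was not tested.

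Levels per kilobase of canonical transcript allow these genes to be set beside their heavy chain. They use a single annotated length per gene, such as 4556 bases for SLC7A5, 9645 for SLC7A11 and 1885 for SLC3A2. Isoform use was not measured, so shares and ratios between genes depend on these lengths. SLC3A2 had 15931 ± 477 normalized counts per kb in KYSE70 and 27001 ± 1271 in NRF2null-KYSE70, and SLC7A5 had 16862 ± 1213 and 34381 ± 4062. SLC7A11 had 1479 and 1056 per kb, SLC7A6 401 and 445, SLC7A8 368 and 166, and SLC7A7 4.35 and 4.58. SLC7A5 was thus the most abundant light chain transcript in both lines, at a level near that of its heavy chain, with a ratio of 1.06 ± 0.0442 in KYSE70 and 1.27 ± 0.0927 in NRF2null-KYSE70.

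SLC7A5 made up 88.2% ± 0.433 of the summed level per kb of these 5 light chains in KYSE70 and 95.3% ± 0.201 in NRF2null-KYSE70. The share of SLC7A8 was 1.93% ± 0.0723 in KYSE70 and 0.462% ± 0.0354 in NRF2null-KYSE70, and that of SLC7A11 was 7.75% ± 0.419 and 2.94% ± 0.131. The ratio of SLC7A5 to SLC7A8 per kb was 47.6, 45.7 and 43.96 in KYSE70 and 222.9, 208 and 191 in NRF2null-KYSE70. For each of these shares and ratios the lines were fully separate, and the exact permutation test gave p = 0.1, the smallest possible.

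**Figure D3:**
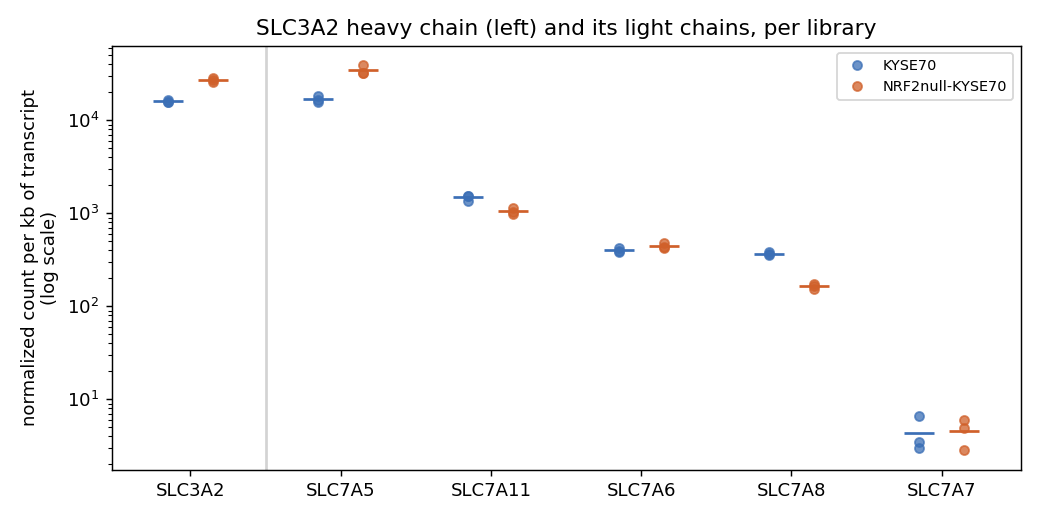
Normalized counts per kb of canonical transcript (log scale) are plotted for the heavy chain SLC3A2 and for 5 light chains, with a point per library and a line at the mean of each cell line. SLC7A5 lay above every other light chain in both lines, by 11.4 times over SLC7A11 in KYSE70 and 32.5 times in NRF2null-KYSE70, and SLC7A8 and SLC7A11 were lower in NRF2null-KYSE70.

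SLC3A2 itself, outside the rule, had 31055, 29654 and 29379 normalized counts in KYSE70 and 53490.4, 50434 and 48765 in NRF2null-KYSE70. All 3 libraries of the clone were higher, by 0.76 on the log2 scale (SE 0.049, limma adjusted p = 4.48e-08), under the cut-off on the fold change. SLC7A11 had 14731, 14884 and 13186 normalized counts in KYSE70 and 11091, 10040.3 and 9431 in NRF2null-KYSE70. It was lower in every library of the clone, with -0.49 on the log2 scale (SE 0.065, limma adjusted p = 3.33e-05). SLC3A1, the heavy chain of the renal cystine carrier, had 8 reads, all in KYSE70, and was not tested. SLC7A9, its light chain, had 1 read, SLC7A10 had 1 and SLC7A13 had none.

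The SLC43 carriers move large neutral amino acids by facilitated diffusion without a heavy chain. SLC43A1 (LAT3, ENSG00000149150, chromosome 11 from 57484534 to 57515780, minus strand) had 161, 162 and 124 normalized counts in KYSE70 and 909, 846 and 852 in NRF2null-KYSE70. The libraries of each line lay close together and far from those of the other. The log2 fold change of 2.54 (SE 0.128, 95% interval 2.27 to 2.82, limma adjusted p = 4.57e-09), a 5.82-fold difference of the means, was the largest among the tested transporters and stayed between 2.42 and 2.63 under every alternative tried.

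SLC43A2 (LAT4) had 1443, 1296 and 1127 normalized counts in KYSE70 and 1137, 1010.0 and 998 in NRF2null-KYSE70. The lines overlapped at their edges, and the log2 fold change was -0.29 (95% interval -0.50 to -0.09, limma adjusted p = 0.0177). The call was lost without KYSE70 library 1 (adjusted p = 0.0908), KYSE70 library 2 (0.0623), NRF2null-KYSE70 library 2 (0.0581) or NRF2null-KYSE70 library 3 (0.0599), and in limma without the trend (0.0752), and over all alternatives the adjusted p ran from 0.00247 to 0.0908. Per kb, the level of SLC43A1 was 0.374 ± 0.0268 times that of SLC43A2 in KYSE70 and 2.69 ± 0.0903 times in NRF2null-KYSE70. On this scale the order of the pair differed between the lines. In normalized counts SLC43A1 was the lower in both, at 0.116 times SLC43A2 in KYSE70 and 0.830 times in NRF2null-KYSE70. The switch per kb rests on canonical lengths of 2514 bases for SLC43A1 and 8133 for SLC43A2, and isoform use was not measured. SLC43A3, which is known as a carrier of nucleobases, had 2 reads in all.

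**Figure D4:**
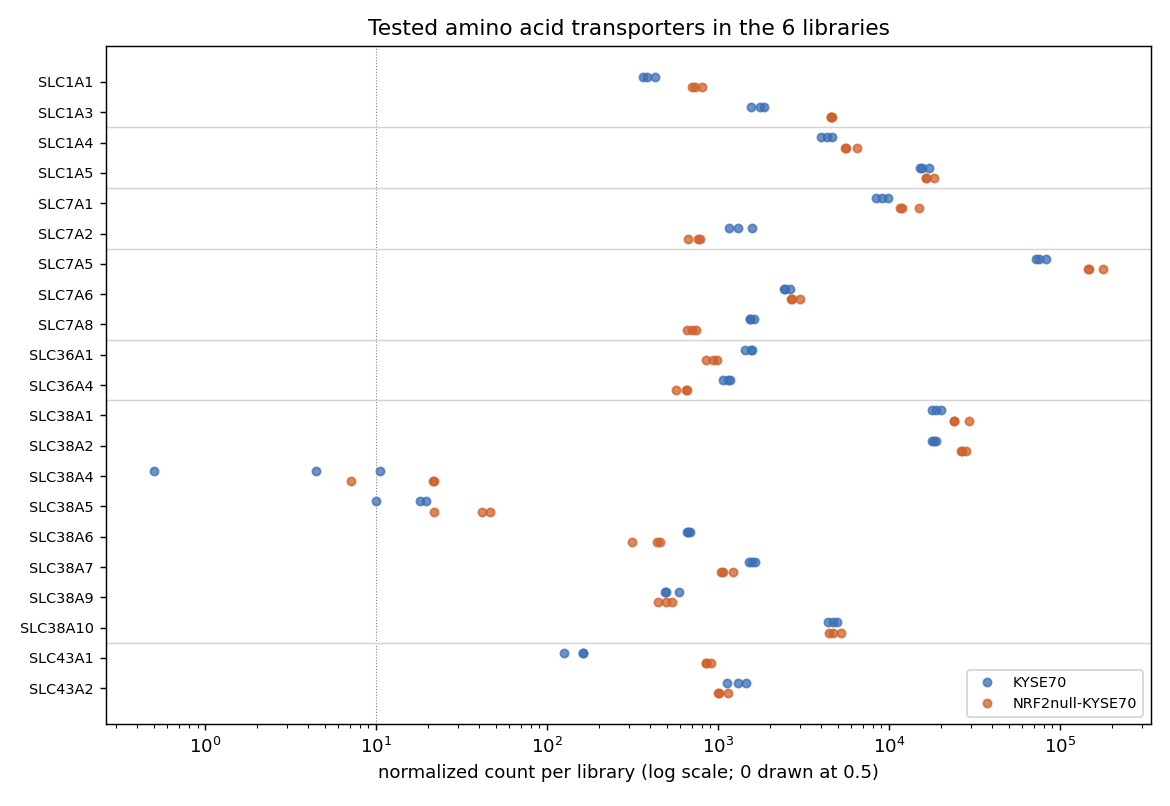
Normalized counts per library (log scale, with 0 drawn at 0.5) of the 21 tested transporters are plotted as points, with KYSE70 in blue, NRF2null-KYSE70 in orange and the filter on the mean, at 10, as a dotted line. The groups separated for 16 transporters, most widely for SLC43A1, and overlapped for SLC1A5, SLC38A4, SLC38A9, SLC38A10 and SLC43A2.

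SLC1 carriers of glutamate and aspartate take up these acidic amino acids with sodium, and both tested members were higher in NRF2null-KYSE70. SLC1A3 (EAAT1, ENSG00000079215, chromosome 5 from 36596588 to 36688334, plus strand) had 1849.8, 1764 and 1561 normalized counts in KYSE70 and 4536, 4600.0 and 4573 in NRF2null-KYSE70. The clone's libraries were within a narrow band at 2.65 times the parental mean. The log2 fold change was 1.41 (SE 0.065, 95% interval 1.27 to 1.55, limma adjusted p = 2.23e-09), and it was 1.24 relative to its 40 neighbours. SLC1A1 (EAAT3) had 363, 383 and 429 normalized counts in KYSE70 and 804, 729.6 and 706 in NRF2null-KYSE70. Its groups were also separate, with a log2 fold change of 0.93 (95% interval 0.71 to 1.15, limma adjusted p = 5.81e-06). Per kb, SLC1A3 stood at 440.1 and SLC1A1 at 106 in KYSE70, and at 1166 and 202 in NRF2null-KYSE70. The remaining members were hardly or not detected: SLC1A2, the main glutamate carrier of astrocytes, had 39 reads in all, and SLC1A6 and SLC1A7 had none.

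Of the neutral exchangers of the same family, SLC1A4 (ASCT1), a carrier of serine and alanine, had 4599, 4323 and 3979 normalized counts in KYSE70 and 6449, 5521 and 5608 in NRF2null-KYSE70. It was higher in each library of the clone, with a log2 fold change of 0.45 (95% interval 0.29 to 0.60, limma adjusted p = 0.000128). SLC1A5 (ASCT2), the glutamine exchanger, was the second most abundant transporter per kb in KYSE70, at 5499.8 there and 5901 in NRF2null-KYSE70. It had 16966, 15552 and 15034 normalized counts in KYSE70 and 18156, 16481 and 16386 in NRF2null-KYSE70. The lines overlapped, and the log2 fold change of 0.10 did not pass (95% interval -0.02 to 0.23, limma adjusted p = 0.148). Total scaling gave 0.03 and quantile normalization -0.04. The interval leaves out a change as large as that of SLC7A5 or SLC1A3 in the same libraries.

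The cationic carriers bring in arginine, lysine and ornithine, and the tested pair moved in opposite directions. SLC7A1 (CAT1), the widely expressed form, had 9859, 9030.0 and 8376 normalized counts in KYSE70 and 14940.4, 11532 and 11799.5 in NRF2null-KYSE70. All libraries of the clone were higher, with library 1 the highest, and the log2 fold change was 0.48 (95% interval 0.29 to 0.67, limma adjusted p = 0.00046). SLC7A2 (CAT2) had 1569, 1303 and 1157 normalized counts in KYSE70 and 786, 764 and 666 in NRF2null-KYSE70. It was lower in all 3 libraries, with a log2 fold change of -0.85 (95% interval -1.09 to -0.62, limma adjusted p = 2.22e-05). The 40 neighbouring genes of SLC7A2 had a median of -0.45, so that its value relative to them was -0.41, still with an adjusted p under 0.05. SLC7A3 (CAT3) had 4 reads, all in 1 library of the clone, the related SLC7A14 had 1 and SLC7A4 had none.

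The SLC38 family split by level and direction. SLC38A1 and SLC38A2 (SNAT1 and SNAT2), the sodium-coupled carriers that load glutamine and alanine, were abundant and higher in NRF2null-KYSE70. SLC38A2 had 18780.0, 18292 and 17862 normalized counts in KYSE70 and 28113, 26174 and 26786 in NRF2null-KYSE70, with a log2 fold change of 0.56 (95% interval 0.46 to 0.66, limma adjusted p = 3.97e-07). SLC38A1 had 19948, 18729 and 17694 normalized counts in KYSE70 and 29075, 23961 and 23809 in NRF2null-KYSE70, with a log2 fold change of 0.44 (95% interval 0.28 to 0.60, limma adjusted p = 0.000204). The groups were separate for both genes, although neither reached the cut-off on the fold change. Per kb, SLC38A2 stood at 3819 and 5636 and SLC38A1 at 2321 and 3163 in KYSE70 and NRF2null-KYSE70.

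SLC38A7, which exports glutamine from the lysosome, had 1567, 1515 and 1644 normalized counts in KYSE70 and 1213, 1031 and 1064 in NRF2null-KYSE70, and it was lower with a log2 fold change of -0.52 (95% interval -0.68 to -0.35, limma adjusted p = 8.62e-05). SLC38A6 had 663, 681 and 655 normalized counts in KYSE70 and 314, 438 and 453 in NRF2null-KYSE70, with a log2 fold change of -0.75 (95% interval -1.03 to -0.46, limma adjusted p = 0.00033). Both were lower in every library of the clone, and the clone's libraries were further apart for SLC38A6 than those of KYSE70. SLC38A9, the arginine sensor that signals from the lysosome to mTORC1, had 493, 591 and 490.3 normalized counts in KYSE70 and 446, 538 and 492 in NRF2null-KYSE70. The groups overlapped, and its log2 fold change of -0.09 did not pass (95% interval -0.34 to 0.15, limma adjusted p = 0.513). SLC38A10 had 4925, 4389 and 4662 normalized counts in KYSE70 and 5241, 4463 and 4701 in NRF2null-KYSE70. Its groups overlapped as well, and the log2 fold change of 0.04 did not pass (95% interval -0.10 to 0.18, limma adjusted p = 0.611). Its sign depended on scaling and on single libraries.

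SLC38A5 and SLC38A4 (SNAT5 and SNAT4) were near the limit of detection. SLC38A5 (ENSG00000017483, chromosome X from 48458537 to 48470260, minus strand), a carrier of glutamine, asparagine and histidine, had 19.6, 9.98 and 17.9 normalized counts in KYSE70 and 41.6, 46.1 and 21.7 in NRF2null-KYSE70, from 157 reads in all. The highest KYSE70 library and the lowest NRF2null-KYSE70 library were almost level, and the difference was 1.14 on the log2 scale (SE 0.430, 95% interval 0.20 to 2.07, limma adjusted p = 0.0380). The call was lost without KYSE70 library 2 (adjusted p = 0.128), NRF2null-KYSE70 library 1 (0.105) or NRF2null-KYSE70 library 2 (0.139), so it rested on these libraries, and its adjusted p ran from 0.0157 to 0.139 over all alternatives. SLC38A4 had 4.45, 0 and 10.5 normalized counts in KYSE70 and 7.10, 21.6 and 21.7 in NRF2null-KYSE70. Its log2 fold change of 2.01 had an interval from 0.10 to 3.93 and did not pass (limma adjusted p = 0.0674), but it passed without KYSE70 library 3 (2.78, adjusted p = 0.0214) or without NRF2null-KYSE70 library 1 (2.51, 0.0236), within a range of 0.0214 to 0.239 over all alternatives. The value was 1.02 without KYSE70 library 2, 3.15 with a pseudocount of 0.1 and 1.18 with a pseudocount of 5, so its size was not fixed by these reads. SLC38A3 had 7 reads in all, SLC38A8 had 1 and SLC38A11 had none.

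The proton-coupled carriers SLC36A1 and SLC36A4 were both lower in NRF2null-KYSE70. SLC36A1 (PAT1), which moves glycine, alanine and proline across plasma and lysosomal membranes, had 1571, 1427 and 1554 normalized counts in KYSE70 and 977, 850.2 and 933 in NRF2null-KYSE70, with a log2 fold change of -0.72 (95% interval -0.89 to -0.55, limma adjusted p = 4.64e-06). SLC36A4 (PAT4), a carrier of proline and tryptophan, had 1164, 1136 and 1070.3 normalized counts in KYSE70 and 648, 569 and 656 in NRF2null-KYSE70, with a log2 fold change of -0.85 (95% interval -1.03 to -0.66, limma adjusted p = 2.62e-06). Neither pair of groups overlapped. The other members were not tested, since SLC36A2 had 1 read and SLC36A3 had none.

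In all, 16 of the 37 transporters were under the filter. None of them held more than 55 reads over the 6 libraries together, and 6 (SLC1A6, SLC1A7, SLC7A4, SLC7A13, SLC36A3 and SLC38A11) had no read. At 52072801 or more reads per library these genes were at or near the limit of detection, and no fold change is given for them.

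The other genes of amino acid transport and sensing comprised 49 genes in 5 lists, of which 35 were tested. In limma 20 of these (57.1%) had an adjusted p under 0.05, close to the 57.6% of all tested genes. Of the 20, 8 were higher and 12 lower, where 29.3% and 28.3% of all tested genes were called in these directions. Past the threshold with the fold change were 2 (5.71%, beside 14.7% of all tested genes). Both were plasma membrane carriers: SLC6A9, the glycine transporter GLYT1, had 1149, 1022 and 1128 normalized counts in KYSE70 and 2768, 2351 and 2323 in NRF2null-KYSE70 (log2 fold change 1.17, SE 0.080, limma adjusted p = 7.6e-08). SLC6A6, the taurine transporter, had 2407, 2390.2 and 2193 normalized counts in KYSE70 and 1269.9, 990.4 and 1074 in NRF2null-KYSE70 (log2 fold change -1.07, SE 0.087, limma adjusted p = 3.84e-07). Its value was -0.68 relative to its 40 neighbours and -0.99 without NRF2null-KYSE70 library 2, both short of a log2 fold change of 1. The third tested gene of that list of 11, the aromatic amino acid carrier SLC16A10, was higher by 0.57.

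Of 11 mitochondrial amino acid carriers, 10 were tested and 4 (40%) had an adjusted p under 0.05, beside 57.6% of all tested genes. SFXN1 rose by 0.26 and SFXN3 by 0.42 on the log2 scale, and 6 did not pass. Some of these 6 passed in an alternative, with a lowest adjusted p of 0.000262 for SLC25A13, 0.0123 for SLC25A15, 0.0263 for SLC25A12 and 0.0105 for SLC25A44. Centring on neighbours turned SLC25A13 from 0.10 to -0.28 and SLC25A15 from 0.07 to -0.17. SLC25A29 was called higher, at 0.33 (limma adjusted p = 0.0313), but its libraries overlapped and the call was lost relative to its neighbours (adjusted p = 0.302), with total scaling (0.0845), in limma without the trend (0.118) and without library 1 (0.120) or 3 (0.123) of KYSE70 or library 3 (0.0849) of the clone. SLC25A38 was called lower, at -0.34, but relative to its neighbours, whose median was -0.53, it was higher, at 0.19. Of 8 lysosomal and vesicular carriers 5 were tested and 2 (40%) were called, again beside 57.6%. SLC15A4, a carrier of histidine and peptides, fell with a log2 fold change of -0.65. MFSD12, a carrier of cysteine, was called lower at -0.27 (limma adjusted p = 0.0108), a call lost in limma without the trend (0.0612) and without KYSE70 library 1 (0.0575) or NRF2null-KYSE70 library 2 (0.0553). Among 16 genes of lysosomal amino acid sensing, which relay amino acid supply to mTORC1, 15 were tested and 9 (60%) were called, near the 57.6% of all tested genes. RRAGC rose by 0.35 and SESN2 by 0.32, where 29.3% of all tested genes were called higher. The other 7 fell, where 28.3% were called lower: LAMTOR1, LAMTOR2, LAMTOR3 and LAMTOR4 of the Ragulator scaffold, SESN1, SESN3 and ITFG2, at -0.18 to -0.48. ITFG2 lost its call without KYSE70 library 1 (adjusted p = 0.106), 2 (0.0803) or 3 (0.0570) or NRF2null-KYSE70 library 3 (0.128). Some sensing genes that were not called passed in an alternative. Their lowest adjusted p was 0.00495 for RRAGB, 0.0184 for LAMTOR5, 0.0446 for CASTOR2 and 0.0478 for KPTN. RRAGB was at 0.32 and LAMTOR5 at -0.26 relative to their neighbours. Relative to their neighbours SFXN1 was at 0.14, SLC15A4 at -0.25 and LAMTOR2 at -0.22, each still with an adjusted p under 0.05. These changes were small beside those of SLC43A1, SLC1A3, SLC7A5 and SLC7A8 in the same libraries.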

How the data were processed

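RNA-seq was analysed from 3 KYSE70 and 3 NRF2null-KYSE70 libraries. Per the labels and the study's methods, the authors checked reads with FastQC 0.11.5, trimmed them with cutadapt 1.12, aligned them with STAR 2.6.90c to hg38, counted them with featureCounts 1.5.1 and normalized them with DESeq2. The annotation named there is RefSeq although rows carry Ensembl identifiers, and neither strand setting nor treatment of reads with several alignments was given in the sources used here. The deposited signal was a normalized count, a read count divided by 1 size factor per library. Column names gave only the line, and the numbering of libraries follows table order. Dividing by what 1 read is worth gave whole reads for 100% of values (tolerance 0.01), so reads were recovered.

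Differences were tested with limma 3.58.1 (R 4.3.3; lmFit, eBayes with trend) on log2(normalized count + 1), two-sided, for genes with a mean of at least 10, with Benjamini-Hochberg adjustment over all tested genes; the script was tested on simulated data. DESeq2 1.42.0 and edgeR 4.0.16 on recovered reads, other scalings, pseudocounts and filters, left-out libraries and neighbour-centring (minus the median log2 fold change of the 40 nearest tested protein-coding genes) were alternatives. Positions and canonical transcript lengths came from GENCODE v44. Promoter windows came from RefSeq. Every transporter past the threshold, and every other with a mean of at least 500, is described with values; SLC38A4, the remaining tested one, was added after its values were seen. The transporters and all lists were chosen with earlier results of these data known, and 1 listed gene is not reported here.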

Additional observations from a re-analysis of the deposited data

How the results depend on the processing

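The number of transporters past the threshold was 5 and moved to 2 under neighbour-centring, in which SLC7A5 (0.99) and SLC7A8 (-0.96) fell just under the cut-off on the fold change and SLC38A5 lost its adjusted p; under the other alternatives it was 4 or 5, and 4 to 5 with each library left out. The transporters past the threshold also changed: SLC38A4 replaced SLC7A5 without KYSE70 library 3, and replaced SLC7A5 and SLC38A5 without NRF2null-KYSE70 library 1. The number of transporters with an adjusted p under 0.05 was 14 to 17 with each library left out. Over all genes, 2344 were past the threshold, 1511 (784 higher, 727 lower) with the filter at a mean of 50, which tests fewer genes, and 2228 to 2346 with each library left out. Of the 21 tested transporters, 15 kept their direction and their side of the adjusted p of 0.05 in every alternative tried, and SLC1A5, SLC7A6, SLC38A4, SLC38A5, SLC38A10 and SLC43A2 did not. SLC1A5 was -0.0390 with quantile normalization. SLC38A10 was -0.0336 with total scaling, -0.0176 with quantile normalization and, with each library left out, -0.0229 (without NRF2null-KYSE70 library 1) to 0.0930, including -0.000307 without KYSE70 library 2; the cause was not tested. SLC38A5, with 157 reads, also lost its call with no filter on low values (adjusted p = 0.0984) and in limma without the trend (0.0526). Total scaling shifted the median of all genes by -0.0754 on the log2 scale. No paired analysis was possible because the columns carry no replicate numbers. Depth limits the 16 untested transporters, SLC38A4 and SLC38A5, and 1 clone cannot show the spread between clones.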
